A study of Sus scrofa with 6 samples.

Results

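Heat shock proteins are molecular chaperones, which hold or refold proteins that have lost their shape and are made in larger amounts when cells are stressed. Their genes are switched on by heat shock factors, and the members differ in how much of each is present without stress. In arteries they are best known from smooth muscle, where HSPB1 binds to and steadies actin filaments, and from the response to stretch, injury and inflammation.

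The genes examined here were 5 of the 2389 with a named probe on the array, chosen as all non-control probes designed to their pig RefSeq transcripts: HSP70.2 (NM_213766), HSPA6 (NM_001123127), HSPB1 (NM_001007518), HSPH1 (NM_001097504) and HSP90AA1 (NM_213973). They had 13 of the 43603 non-control probes, 2 for HSP70.2, 1 for HSPA6, 2 for HSPB1, 2 for HSPH1 and 6 for HSP90AA1. Within a gene the probes are numbered from the highest to the lowest mean signal. HSP70.2 also goes by HSPA1A and HSPA1B in the gene table, so near-identical copies of that gene cannot be told apart by these probes.

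The study measured total RNA from femoral arteries of pigs (Sus scrofa) on 6 Agilent 1-colour arrays, each from tissue around a repaired puncture. The titles of all 6 call the sample an ex vivo artery, so the levels are not shown to be those of a living vessel. TAG, the vascular glue under study, had sealed the puncture in 3 of the samples, and Exoseal, a commercial closure device, in the other 3. The labels give the left side for all 6, and they do not say whether samples came from separate animals, so the spread behind each p-value may be technical. An artery without a puncture was not analysed here, so every difference is of TAG relative to Exoseal.

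Samples were grouped by title. Exoseal replicate 1 carries Exoseal in its title and TAG in its treatment field, and the file headers give it the same scan as the 3 TAG arrays (scan 1), while Exoseal replicates 2 and 3 share another (scan 2). Results are therefore also given without that array and within scan 1. The TAG arrays detected fewer probes, with 34.7% to 41.2% well above background against 60.6% to 70.8% on the Exoseal arrays. Their processed signal was lower too, with a 75th percentile of 19.3 to 36.4 against 61.0 to 151. The smooth muscle markers ACTA2, CNN1, DES and MYLK were well above background on all 6 arrays.

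Levels below are log2 of the processed signal minus the 75th percentile of the array, so that 0 is the level of that percentile. Differences are TAG minus Exoseal in log2 units with the standard error of limma, tested over all 22720 probes that were well above background on at least 3 of the 6 arrays, with Benjamini-Hochberg adjustment and a threshold of 0.05 (3 arrays per group). All 13 heat shock probes met that filter and 11 of them were well above background on all 6 arrays. HSP70.2 probe 2 was well above background on 1 of 3 Exoseal arrays, and HSPH1 probe 2 on 2 of 3.

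Of the 13 probes, 5 rose in TAG and 0 fell. They were HSP70.2 probe 1, HSPA6 probe 1, both HSPB1 probes and HSP90AA1 probe 4, so 4 of the 5 genes had at least 1 probe that passed. A gene with more probes passes such a count more easily, and HSP90AA1 did so by 1 of its 6. The share of all genes counted this way is not given here. Over all tested probes 10.8% passed, 7.06% higher and 3.69% lower in TAG. The groups did not overlap for 9 of the 13 probes, all higher in TAG, against 20.2% of all probes that lay higher without overlap and 16.2% lower. The 9 include HSP70.2 probe 2, which met the filter mainly through TAG, as only 1 Exoseal array detected it. The median difference of the 13 probes was 1.49, and that of all tested probes 0.08. Without a filter on dim probes the median of all probes was 0.74, so the 0.08 depends on the filter. In a fit to the 12887 probes well above background on all 6 arrays, 5 of 11 heat shock probes passed. Of all probes in that fit 16.4% passed, and 74% of those were higher in TAG. The probes of 1 gene share a transcript and are not replicates.

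**Figure D1:**
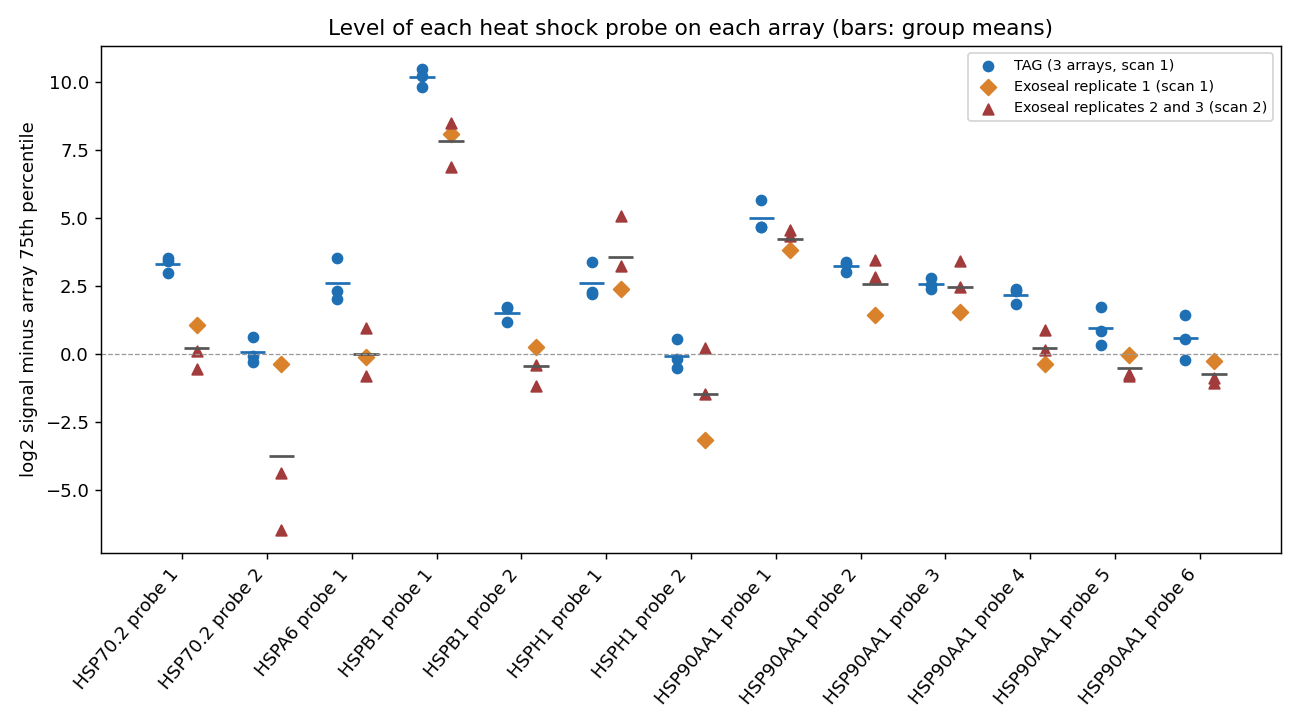
Level of each of the 13 heat shock probes on each of the 6 arrays, as log2 signal minus the 75th percentile of the array (y axis), with circles for TAG, a diamond for Exoseal replicate 1, triangles for Exoseal replicates 2 and 3, and bars for group means. The TAG arrays lie above all Exoseal arrays for 9 probes, among them HSP70.2 probe 2, which only 1 Exoseal array detected. HSPH1 probe 1 is highest on an Exoseal array.

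HSP70.2 encodes the classical inducible cytosolic HSP70, an ATP-driven chaperone that is scarce in unstressed cells. The processed signal of its probe 1 (A_72_P088236) was 418, 274 and 150 on TAG replicates 1, 2 and 3, and 143, 160 and 41.3 on Exoseal replicates 1, 2 and 3. After scaling the levels were 3.52, 3.41 and 2.96 in TAG, and 1.06, 0.09 and -0.56 in Exoseal. All 3 TAG arrays lay above all 3 Exoseal arrays, and Exoseal replicate 1 was the closest to them. HSP70.2 rose by 3.10 ± 0.51, or 8.60-fold (adjusted p = 0.0225, limma). Against Exoseal replicate 1 alone, within scan 1, the difference was 2.24, and against the other 2 Exoseal arrays it was 3.54.

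The second HSP70.2 probe (A_72_P015686) went the same way with a wider spread. Its levels were 0.60, -0.31 and -0.08 in TAG, and -0.39, -6.48 and -4.39 in Exoseal. Exoseal replicate 1 sat just below the TAG arrays, while replicates 2 and 3 were not well above background. On those 2 arrays, of scan 2, the mean net signal of negative control spots was 1.8 and 1.6, against 18.0 to 30.9 in scan 1. The part of this background difference between scans in the values of so dim a probe, or of the other dim heat shock probes, was not tested. The difference of 3.82 ± 1.25 did not pass (adjusted p = 0.0765, limma), and within scan 1 it was 0.46. No value is given without Exoseal replicate 1, since both remaining Exoseal arrays were below the detection limit for it. The correlation of the 2 probes over the 6 arrays was r = 0.84, a description of arrays that share group and scan.

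HSPA6 encodes HSP70B', the most strictly stress-inducible HSP70, with little transcript in resting cells. The processed signal of its only probe (A_72_P176131) was 412, 104 and 94.8 on TAG replicates 1, 2 and 3, and 62.8, 293 and 34.3 on Exoseal replicates 1, 2 and 3. Scaled levels were 3.50, 2.01 and 2.30 in TAG, and -0.12, 0.96 and -0.83 in Exoseal. TAG replicate 1 was the highest, Exoseal replicate 2 the highest of its group, and the groups did not overlap. HSPA6 rose by 2.60 ± 0.60, or 6.07-fold (adjusted p = 0.0334, limma). The difference was 2.73 within scan 1 and 2.54 against Exoseal replicates 2 and 3, so it was of like size against either set of Exoseal arrays.

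HSPB1 encodes HSP27, a small heat shock protein that holds unfolded proteins without ATP and is abundant in muscle. Its probe 1 (A_72_P679687) was among the brightest spots of the array. The processed signal was 32599, 30674 and 27193 on TAG replicates 1, 2 and 3, and 18552, 17698 and 21654 on Exoseal replicates 1, 2 and 3. Between 3 and 83 of all probes were brighter on any array, and no spot was saturated. Scaled levels were 9.81, 10.22 and 10.46 in TAG, and 8.08, 6.88 and 8.47 in Exoseal, with no overlap. The rise was 2.35 ± 0.52, or 5.11-fold (adjusted p = 0.0306, limma).

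HSPB1 probe 2 (A_72_P088101) gave a far lower signal. It read 119, 81.7 and 43.2 on the TAG arrays, and 81.3, 67.2 and 45.5 on the Exoseal arrays. Scaled levels were 1.71, 1.67 and 1.16 in TAG, and 0.25, -1.17 and -0.42 in Exoseal, again without overlap. The probe rose by 1.96 ± 0.49, or 3.89-fold (adjusted p = 0.0386, limma). The probes of HSPB1 followed each other over the 6 arrays with r = 0.92. Within scan 1 the differences were 2.08 for probe 1 and 1.26 for probe 2.

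HSPH1 encodes HSP110, a relative of HSP70 that exchanges its nucleotide and helps to dissolve aggregates. Its 2 probes disagreed in sign, and neither passed. HSPH1 probe 1 (A_72_P035611) had levels of 3.36, 2.20 and 2.26 in TAG, and 2.39, 5.05 and 3.24 in Exoseal. Exoseal replicate 2 was the highest array and the groups overlapped. The difference was -0.95 ± 0.69 (adjusted p = 0.387, limma; 95% interval -2.51 to 0.61), and within scan 1 it was 0.22. Without Exoseal replicate 1 the probe fell by 1.53 and passed (adjusted p = 0.0487, limma), while without Exoseal replicate 2 it had -0.20 (0.824). The size of this difference thus depended on which Exoseal array was left out.

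For HSPH1 probe 2 (A_72_P591989) the levels were 0.53, -0.20 and -0.52 in TAG, and -3.18, 0.21 and -1.46 in Exoseal. The groups overlapped, and the lowest value was that of Exoseal replicate 1, where the probe was not well above background. The difference was 1.41 ± 0.78 (adjusted p = 0.251, limma; 95% interval -0.34 to 3.17), or 3.11 within scan 1, where it is set against that undetected value. It was 0.56 without Exoseal replicate 1 and 2.26 without Exoseal replicate 2. The HSPH1 probes had r = 0.42 over the 6 arrays. As the mean of both, HSPH1 had 0.23 (adjusted p = 0.861, limma).

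HSP90AA1 encodes the stress-inducible form of cytosolic HSP90, which matures kinases and steroid receptors and is also abundant at rest. All 6 of its probes had a positive difference, from 0.11 to 1.96, and 1 passed. Probe 1 (A_72_P700356) had levels of 4.66, 5.65 and 4.67 in TAG, and 3.81, 4.53 and 4.33 in Exoseal. The groups did not overlap, but the gap between them was narrow, and the difference of 0.77 ± 0.47 did not pass (adjusted p = 0.298, limma; 95% interval -0.29 to 1.82). It was 1.18 within scan 1, 0.56 without Exoseal replicate 1 and 0.44 without TAG replicate 2. Probe 4 (A_72_P525187) had levels of 1.83, 2.38 and 2.30 in TAG, and -0.38, 0.89 and 0.13 in Exoseal. It rose by 1.96 ± 0.47, or 3.88-fold (adjusted p = 0.0364, limma), with 2.55 within scan 1 and 1.66 without Exoseal replicate 1.

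The other 4 HSP90AA1 probes fell into pairs that behaved alike. Probes 2 and 3 had 0.65 and 0.11 and overlapping groups, with the lowest value on Exoseal replicate 1. Within scan 1 probe 2 had 1.78 and passed (adjusted p = 0.0419, limma) and probe 3 had 1.05, but without Exoseal replicate 1 they had 0.09 and -0.36. Probes 5 and 6 had 1.49 and 1.32 without overlap, with adjusted p-values of 0.0819 and 0.125 (limma). They had 0.99 and 0.84 within scan 1, and without Exoseal replicate 1 they had 1.73 and 1.56 and passed (0.0140 and 0.0294). Over the 15 pairs of HSP90AA1 probes r ran from -0.24 to 0.90 with a median of 0.70, and 13 of the 15 were above 0. As the mean of its probes HSP90AA1 had 1.05 (adjusted p = 0.145, limma).

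HSP70.2 and HSPA6 are nearly silent at rest in textbook accounts, while HSPB1, HSPH1 and HSP90AA1 have a basal level that stress raises further. The 3 probes of the inducible pair had differences from 2.60 to 3.82. The 10 probes of the other 3 genes ran from -0.95 to 2.35. The ranges overlapped within scan 1, where the inducible pair had 0.46 to 2.73 and the others reached 3.11 for HSPH1 probe 2 and 2.55 for HSP90AA1 probe 4. With normexp HSP70.2 probe 2 had 0.65 and HSP90AA1 probe 4 had 1.27. HSPA6 and HSPB1 probe 1 had 2.15 and 2.53 without TAG replicate 1, and 2.19 and 2.68 without Exoseal replicate 3. Under quantile and median scaling the ranges stayed apart, so the order of the 2 kinds depended on the setting. The highest value, 3.82, is of HSP70.2 probe 2, which only 1 Exoseal array detected. Whether 2 genes changed unequally was examined within each array, as the log2 difference of their brightest probes, which does not depend on how arrays are scaled by a constant. The 10 pairs of the 5 genes were compared with an exact two-sided permutation test over the 6 arrays, which cannot go below p = 0.1 in this design and so cannot reach the threshold.

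HSP70.2 minus HSPH1 was 0.16, 1.21 and 0.71 on the TAG arrays, and -1.33, -4.96 and -3.80 on the Exoseal arrays. The groups did not overlap and their means differed by 4.05 (exact permutation p = 0.1, adjusted 0.2). HSPA6 minus HSPH1 differed by 3.55 and HSPB1 minus HSPH1 by 3.30, both with exact permutation p = 0.1 and adjusted p = 0.2. Every pair with HSPH1 uses its probe 1, which had -0.95. HSPH1 probe 2 had 1.41, opposite in sign, and no pair was computed with it, so these sizes hold for probe 1 only. Against HSP90AA1 the differences were 2.33 for HSP70.2 and 1.58 for HSPB1 (both exact p = 0.1, adjusted 0.2), and 1.83 for HSPA6 (exact p = 0.2, adjusted 0.286). HSPH1 minus HSP90AA1 was lower in TAG by a mean of -1.72 (exact p = 0.2, adjusted 0.286).

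Among HSP70.2, HSPA6 and HSPB1 the within-array differences were smaller and the groups overlapped. HSP70.2 minus HSPA6 differed by 0.50 (exact p = 0.6, adjusted 0.667), HSP70.2 minus HSPB1 by 0.75 (exact p = 0.5, adjusted 0.625) and HSPA6 minus HSPB1 by 0.25 (exact p = 0.9, adjusted 0.9). Differences with HSPB1 depended on the processing. In a fit to the authors' deposited table HSP70.2 minus HSPB1 was 2.68 and HSPA6 minus HSPB1 2.27 (both exact p = 0.1, adjusted 0.167), and HSPB1 minus HSPH1 was 1.33 (exact p = 0.4, adjusted 0.5). With normexp these were 1.75, 1.36 and 1.11 (exact p = 0.1, 0.2 and 0.5). Within scan 1 HSP70.2 minus HSPH1 differed by 2.02, HSPB1 minus HSPH1 by 1.86, HSP70.2 minus HSP90AA1 by 1.06 and HSPB1 minus HSP90AA1 by 0.90, each over 1.5 times smaller than over all arrays. Without Exoseal replicate 2 the values for HSPB1 were 2.09 against HSPH1 and 0.96 against HSP90AA1.

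**Figure D2:**
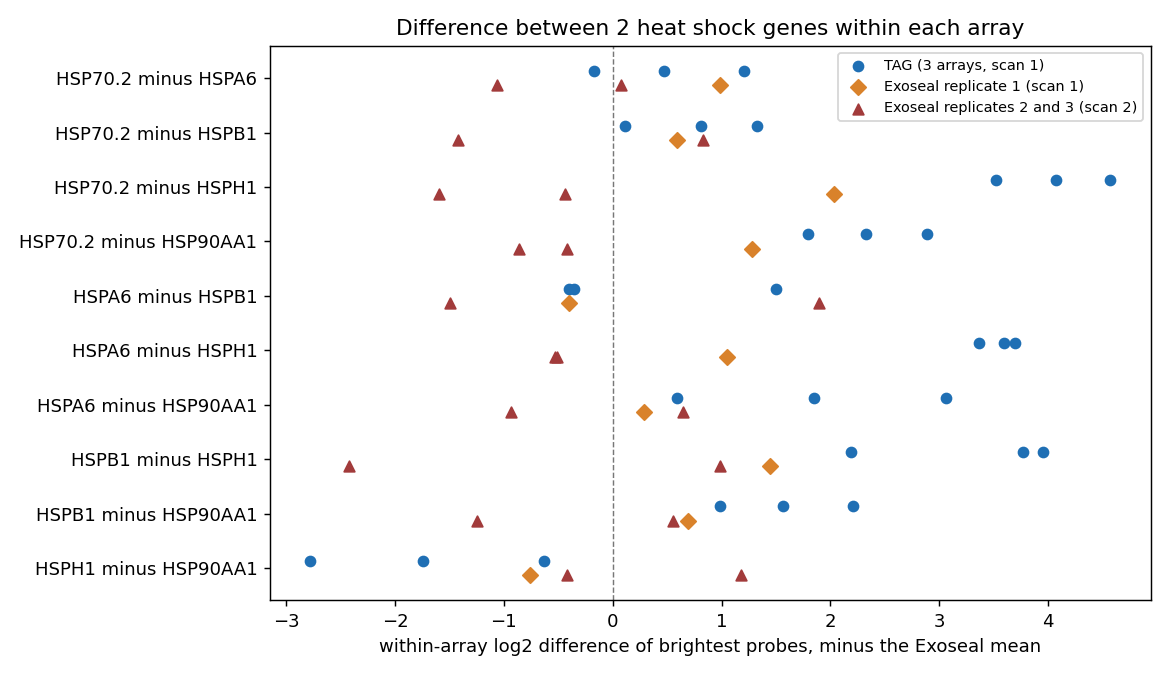
For each of the 10 pairs of heat shock genes (y axis), the log2 difference of their brightest probes within an array, drawn relative to the Exoseal mean (x axis, log2 units), with circles for TAG, a diamond for Exoseal replicate 1 and triangles for Exoseal replicates 2 and 3. TAG arrays lie to the right of all Exoseal arrays for 5 pairs, among them HSP70.2, HSPA6 and HSPB1 minus HSPH1. HSPH1 is drawn by its probe 1 alone, and its probe 2 differed in sign.

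The size of each rise depends on how the arrays are scaled. Without any scaling, the mean log2 signal in TAG minus that in Exoseal was 1.40 for HSP70.2 probe 1, 0.89 for HSPA6, 0.65 and 0.25 for HSPB1 probes 1 and 2, -2.66 for HSPH1 probe 1 and -0.94 for HSP90AA1 probe 1. The 75th percentile itself was lower in TAG, by a mean of -1.71, and taking it off raises every probe by that amount. Scaling on the median of each array moves every difference by -0.46, on the 75th percentile of the 12887 probes detected on all arrays by 0.13, and on the mean of 3 reference genes (B2M, PPIA and HPRT1) by 0.80. The 3 reference genes themselves had -0.23 (B2M), -0.38 (PPIA) and -1.78 (HPRT1), with adjusted p-values of 0.742, 0.601 and 0.0519 (limma). The median difference of all probes, 0.08 here, becomes -0.39, 0.21 and 0.87 under these settings.

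HSP70.2 probe 1 passed under each of these scalings, with 2.64 (adjusted p = 0.0378) on the median, 3.24 (0.0264) on the percentile of detected probes and 3.90 (0.00636) on the reference genes, and with 3.10 (0.0115) under quantile scaling, all by limma. On the median it was the only 1 of the 13 probes that passed, and 4.62% of all probes passed there. HSPA6 then had 2.14 (adjusted p = 0.0887, limma) and HSPB1 probe 1 had 1.89 (0.0645). HSPB1 probe 2 and HSP90AA1 probe 4 had adjusted p-values of 0.0799 and 0.160 (limma). On the reference genes, a scaling added after seeing the data, 9 of the 13 probes passed, where 24.9% of all probes passed and 95.8% of those were higher in TAG. On the percentile of detected probes 5 of the 13 passed (9.61% of all probes). There were 4 under quantile scaling (13.9%), 4 by a fit to the values of the authors' deposited table (12.8%) and 4 with normexp background correction, also added after seeing the data (7.07%). Normexp gave smaller differences, with 1.03 for HSPB1 probe 2, 1.27 for HSP90AA1 probe 4, 0.65 for HSP70.2 probe 2 and a median of 0.63 over the 13 probes. With 1 value per gene, 3 of the 5 genes passed by the brightest probe (10.3% of all) and 3 by the mean of probes (9.54%). Of all calls 65.7% were higher in TAG at the scaling used, 51.7% under quantile scaling and 46.9% on the median.

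The 2 HSPB1 probes parted under quantile scaling, which gives every array the same set of values. Probe 1 had 0.38 there (adjusted p = 0.605, limma) and 0.42 (0.528) in a fit to the authors' deposited table, while probe 2 had 1.92 (0.0271) and 1.91 (0.0257). HSPB1 probe 1 was near the top of every array, as given above. Probe 2 lay above 84.7% to 87.4% of probes on TAG arrays and above 66.1% to 77.3% on Exoseal arrays. HSP70.2 probe 1 lay above 93.1% to 94.3% of probes on TAG arrays and 70.6% to 83.6% on Exoseal arrays. HSPA6 lay above 88.5% to 94.3% and 68.2% to 81.4%.

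**Figure D3:**
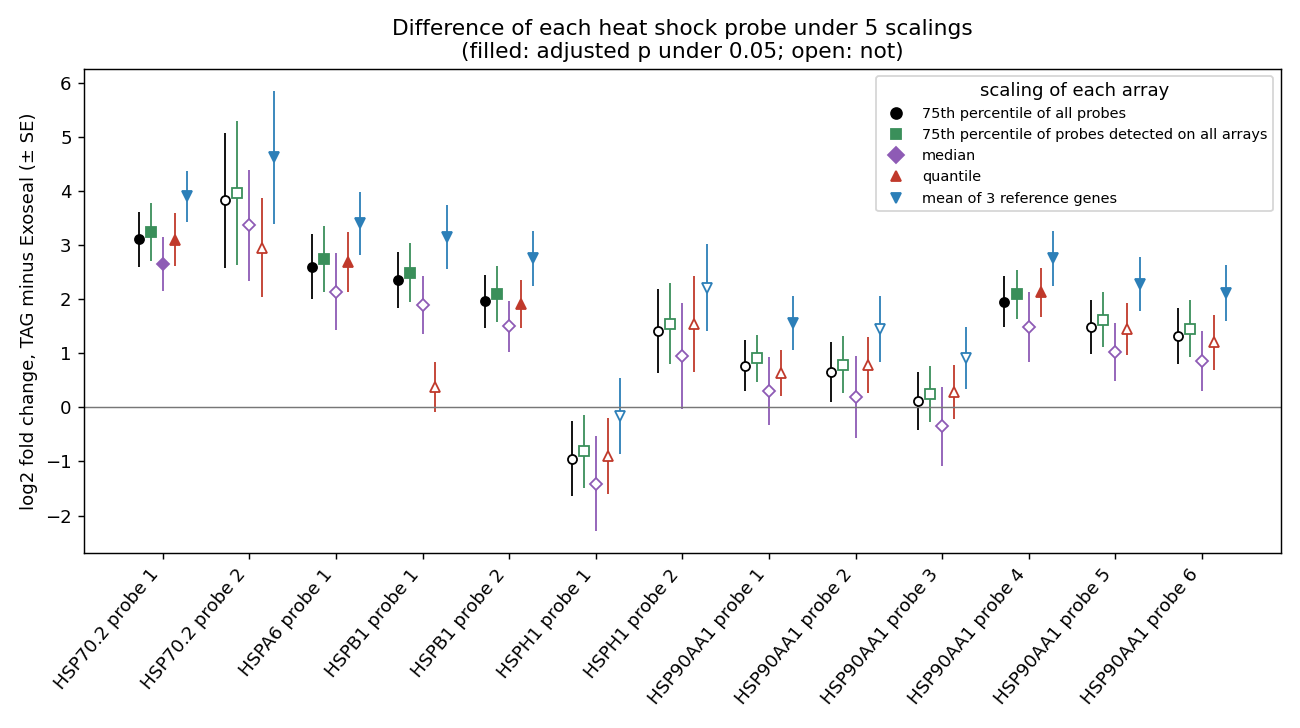
Log2 fold change, TAG minus Exoseal, of each of the 13 heat shock probes (y axis, ± standard error of limma, 3 arrays per group) under 5 scalings, with filled symbols where the adjusted p was under 0.05. HSP70.2 probe 1 is filled under all 5, and HSPB1 probe 1 drops to 0.38 under quantile scaling while HSPB1 probe 2 stays at 1.92.

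The rises rest on few arrays. With 1 of the TAG arrays removed, or Exoseal replicate 2 or else 3, there were 0 of the 13 probes and 0 of all probes past the threshold (limma), with 5 to 8 of the 13 at an unadjusted p under 0.05. HSP70.2 probe 1 then had 2.72 to 3.27. Leaving out Exoseal replicate 1 gave 8 rises and 1 fall among the 13 probes, where 34% of all probes passed, 21.1% higher and 12.8% lower. The 8 include HSP70.2 probe 2, which neither remaining Exoseal array detected. Within scan 1, 6 of the 13 passed, against 12.7% of all probes. Exoseal replicate 1 is there the only Exoseal sample and is assumed to vary like the 3 TAG arrays, and HSPH1 probe 2, among the 6, was not detected on it. With scan as a block, which compares TAG with Exoseal replicate 1, HSP70.2 probe 1 (2.24, adjusted p = 0.0315), HSPA6 (2.73, 0.0358), HSP90AA1 probe 4 (2.55, 0.0196) and HSPH1 probe 2 (3.11, 0.0164) passed, and 8.99% of all probes did. HSPB1 did not pass in that limma fit, with 2.08 (adjusted p = 0.0594) and 1.26 (0.176). Counting Exoseal replicate 1 as TAG, as its treatment field has it, left 3 of the 13 past the threshold, against 16.7% of all probes. They were HSP70.2 probe 1 (2.98, adjusted p = 0.00940, limma), HSPB1 probe 2 (1.99, 0.0294) and HSP70.2 probe 2, for which neither remaining Exoseal array was above the detection limit, but not HSPA6 (1.86, 0.137), HSPB1 probe 1 (1.97, 0.0683) or HSP90AA1 probe 4 (1.02, 0.347).

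Other genes of the chaperone system were taken from 9 lists, of which 23 genes besides the 5 had a named probe and 19 were tested, each by its brightest tested probe. By that probe 0 of the 19 passed in either direction (limma), and by the same count 3 of the 5 heat shock genes did. Of all probes 10.8% passed, and 10.3% in the fit with 1 probe per gene. The 5 genes and the lists were chosen with earlier results of these data known. The contrast therefore cannot show that the 5 stand apart from the 19. Counted by any probe, which favours genes with more probes, 3 of the 19 (ATF4, BAG6 and PFDN4) and 4 of the 5 passed. No share of all genes is given for that count. The median difference of the 19 was 0.11, close to the 0.08 of all tested probes, and 10 of 19 were positive. HSPA1L, an HSP70 known mainly from testis, had 0.22 ± 0.46 (adjusted p = 0.781, limma; 95% interval -0.81 to 1.25). HSBP1, which binds heat shock factor 1 and holds it in check, had 0.43 (adjusted p = 0.508, limma).

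Among the J-domain partners of HSP70, DNAJC3 had -1.16 (adjusted p = 0.0943) and DNAJA4 -0.22 (0.839), and 0 of 3 passed. DNAJC3 was well above background on 1 of 3 TAG arrays. Of 6 co-chaperones tested, FKBP1A, a prolyl isomerase, had 2.03 ± 0.65 (adjusted p = 0.0732) and BAG6, a holdase for membrane proteins, had -1.46 ± 0.50 (0.0851), both without overlap of the groups. The 5 FKBP1A probes ran from -0.08 to 2.03, and of 2 further BAG6 probes 1 passed at -2.07 and the other had 0.48. FKBP4 and CHORDC1, both HSP90 co-chaperones, were below that detection limit on all 3 TAG arrays. HSPE1, the mitochondrial HSP10, had -0.71 ± 0.43 (adjusted p = 0.302), and all 4 of its probes were negative, from -1.42 to -0.71.

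For prefoldin, which hands new actin and tubulin to the chaperonin, PFDN6 had 0.91 (adjusted p = 0.178) and PFDN4 -0.84 (0.218), while another PFDN4 probe had 4.76 and passed (adjusted p = 0.0319, limma). In the endoplasmic reticulum XBP1, a transcription factor of the unfolded protein response, had -0.93 (adjusted p = 0.210) and DDIT3, a pro-apoptotic factor of that response, -0.68 (0.371), and 0 of 5 passed by their brightest probes. The 6 XBP1 probes ran from -1.06 to 1.87. ATF4, a transcription factor of the integrated stress response, had 6 positive probes from 0.13 to 2.08, of which the highest passed (adjusted p = 0.0305, limma). HSP90B1, the HSP90 of that compartment, named after its values were seen, had 8 probes between 0.46 and 1.43 of which 0 passed. In a further list, of ubiquitin, proteasome and redox stress genes, 1 of 8 passed by its brightest probe: HMOX1, the inducible haem oxygenase, fell by 3.60 ± 0.54 (adjusted p = 0.0221, limma), while its other probe had 1.21. VCP, an ATPase that extracts ubiquitinated proteins, had -0.41 by its brightest probe, and another of its probes rose by 1.58 (adjusted p = 0.0445, limma). UBB, a polyubiquitin gene that heat induces, also named after its values were seen, had 0.74 (adjusted p = 0.291).

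**Figure D4:**
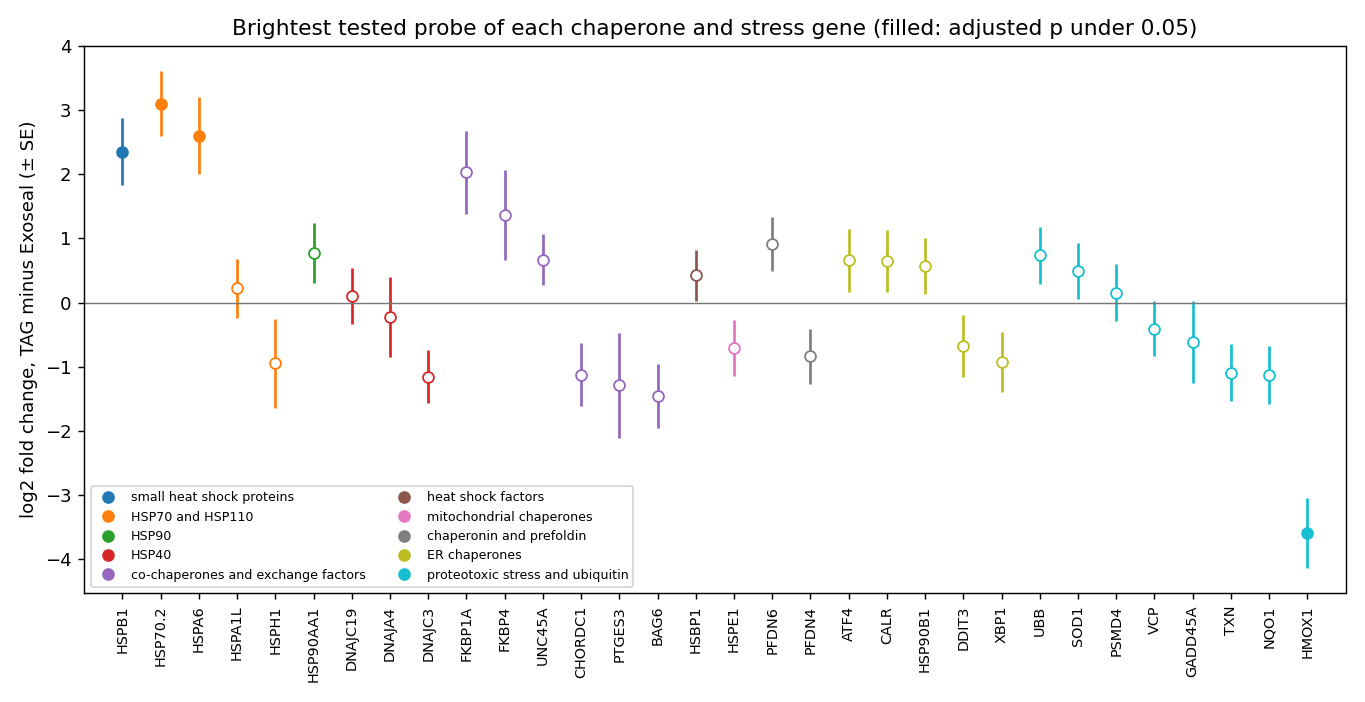
Log2 fold change, TAG minus Exoseal, of the brightest tested probe of each gene of 10 chaperone and stress lists (y axis, ± standard error of limma, 3 arrays per group), coloured by list and filled where the adjusted p was under 0.05. HSP70.2, HSPA6 and HSPB1 are the only filled genes above 0 and HMOX1 the only one below, and FKBP4, CHORDC1 and NQO1 were below the detection limit on all 3 TAG arrays.

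The genes whose levels followed each heat shock gene most closely over the 6 arrays were found among 1614 other named genes by Pearson's r on the scaled levels, which is a description of arrays that share group and scan. For HSP70.2 they were ADGRE5, an adhesion receptor (r = 0.995), GATA6, a transcription factor of smooth muscle (0.990), and ANGPTL7, a secreted angiopoietin-like protein (0.986), and 111 genes had r above 0.9. For HSPA6 they were CD40, a receptor of immune cells (0.967), and the transcription factors KLF15 (0.959) and NR4A3 (0.950), with 17 genes above 0.9. HSPB1 was closest to MUT, ACY1 and VARS2 (0.998, 0.995 and 0.994), enzymes of the mitochondrion, of amino acid deacylation and of mitochondrial tRNA charging, with 106 genes above 0.9.

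HSPH1 was closest to PTGR1 (0.98), NAMPT (0.97) and DLD (0.96), with 24 genes above 0.9, and GOT2 (0.96) and RACK1 (0.96) were among the closest to HSP90AA1, with 9. Between the brightest probes of the heat shock genes themselves, r was 0.89 for HSP70.2 with HSPA6, 0.84 for HSP70.2 with HSPB1 and 0.64 for HSPA6 with HSPB1. HSPH1 had r = -0.74 with HSPB1 and -0.53 with HSP70.2.

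Markers of the cells in the sample differed between the same arrays, and in whole tissue fewer cells of a type and less RNA per cell cannot be told apart. The values below are of each marker's brightest probe. Of 4 smooth muscle markers measured, ACTA2 and DES rose (2.22 and 1.52), CNN1 had 0.73 and MYLK -1.37. The summed level of the 4, relative to the 75th percentile, was 448 to 527 in TAG and 247 to 274 in Exoseal. Neither call held with median scaling (ACTA2 adjusted p = 0.0613, DES 0.187, limma), and under quantile scaling DES had 0.75 (0.210) and CNN1 -0.37. Of 12 skeletal muscle markers ACTA1 rose (2.48, with its 16 probes from -1.94 to 2.48), but it did not pass with median scaling (adjusted p = 0.0582, limma). The sum of the 12 was 70.5 to 91.3 in TAG and 27.4 to 52.6 in Exoseal. Without ACTA1 it was 22.3 to 35.4 and 16.8 to 43.6, which overlap, and 7 of the 12 genes were negative. Of 7 macrophage markers LYZ and AIF1 fell (-3.64 and -1.80), with a sum of 15.8 to 23.5 in TAG and 45.9 to 85.1 in Exoseal. C1QA, CD14 and CD163 had 0.68, 0.23 and 0.10, the list median was -0.19, and without LYZ and AIF1 the sums overlapped, at 6.83 to 13.5 and 7.94 to 17.2. Of 3 endothelial markers CDH5 fell (-2.47), with a sum of 5.23 to 9.91 in TAG and 14.9 to 51.0 in Exoseal. Without CDH5 the sums were 2.06 to 5.44 and 4.80 to 9.73, which overlap. CDH5 did not pass with median scaling (adjusted p = 0.0551, limma), ENG had 0.84, and PECAM1 had -1.57 while another of its probes rose by 2.40 (0.0376). MYH4 and TYROBP were below the detection limit on all 3 TAG arrays. The part of these cell types, and of the lower detection on TAG arrays, in the heat shock differences was not tested.

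Of the remaining markers 0 passed by their brightest probes (limma), with 2 neutrophil, 2 T and NK cell, 1 fibroblast, 2 adipocyte and 1 epithelial gene measured. Their summed levels were 0.63 to 1.14 in TAG and 0.36 to 0.54 in Exoseal for neutrophils, 0.97 to 1.12 and 0.54 to 1.17 for T and NK cells, 216 to 239 and 99.8 to 141 for the fibroblast gene DCN, 79.2 to 91.4 and 78.1 to 120 for adipocytes, and 0.34 to 0.62 and 0.23 to 0.44 for the epithelial gene KRT8. By other probes DCN rose at 2 of its 4 (1.91 and 1.86) and LEP fell at 1 (-1.85, adjusted p = 0.0437, limma). By their brightest probes GZMB and LEP were below the detection limit on all 3 TAG arrays.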

How the data were processed

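Total RNA of 6 artery samples was amplified, labelled with Cy3 and hybridised, per the labels' protocols. The deposited scanner files hold spot intensity from Agilent Feature Extraction 11.0.1.1 (per the submitters' processing notes), with spatial and multiplicative detrending statistics per the file headers. The deposited series table holds log2 values whose 6 columns share a median of 3.40. The software and the method of scaling are not stated, and its Spearman correlation with each array ran from 0.941 to 0.995.

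Outlier spots and 1417 control spots per array were left out, and 223 of 43603 probes without a value on every array. Unversioned RefSeq accessions, matched to the gene table of Sscrofa11.1 for names alone, named 5435 of 43380 probes. No coordinates are printed, as no source used here states a build for the array. limma 3.58.1 in R 4.3.3 (lmFit, eBayes, two-sided, no covariates) compared the groups, and the script was tested on simulated data. Samples were grouped by title. Each probe was a feature, and brightest-probe and mean-of-probes fits were alternatives. The number of arrays limits the precision.

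The members and lists were chosen with earlier results of these data known. Named were all member probes, per list up to 4 genes past the threshold or else the 2 of smallest p, 3 genes of like pattern per member (1 of them is not reported here), and reference genes, of which 3 were measured. Reference gene scaling, and normexp on the median signal in place of a mean signal, which is not used here, were added after seeing the data.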

Additional observations from a re-analysis of the deposited data

How the results depend on the processing

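Of all probes, 2443 passed at the settings used. This became 1049 with median scaling (492 higher, 557 lower), 1607 with normexp and quantile scaling, 5646 with reference gene scaling, 0 of 43380 without a filter on dim probes (14128 at an unadjusted p under 0.05), 3788 with Exoseal replicate 1 counted as TAG, and 0 to 7715 when 1 array was left out, the latter without Exoseal replicate 1. With the replicate block 0 passed in limma (6381 at an unadjusted p under 0.05). Same-numbered arrays had correlations of deviations of -0.18, 0.09 and -0.07, and not every array was closest to its own number. With 3 arrays per group these values cannot show whether samples were paired. The numbers are not taken as pairs because the labels do not say that they pair arteries.

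Of the 13 heat shock probes 5 passed, against 1 with median scaling, 9 with reference gene scaling, 0 without a filter (8 at an unadjusted p under 0.05), 0 with the replicate block (8), 3 with Exoseal replicate 1 counted as TAG, and 0 to 9 when 1 array was left out. Fits with 1 value per gene, by the brightest probe or the mean of probes, each had 3 of 5 genes past the threshold. Of 242 values of single probes under the alternatives, 173 kept direction and side of the threshold, 48 lost the call, 12 gained it and 9 reversed.

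The planned normexp fit on a mean signal was not run, and the median signal was used. The reversals were of differences that had not passed. HSPH1 probe 1 became 0.23 as the mean of both probes and 0.22 with scan as a block and within scan 1. HSPH1 probe 2 became -0.22 and HSP90AA1 probes 2 and 3 became -0.36 and -0.62 with Exoseal replicate 1 counted as TAG. HSP90AA1 probe 3 became -0.35 with median scaling, and -0.36 to 0.58 when 1 array was left out. Within arrays, HSPB1 minus HSP90AA1 became -0.12 with normexp and -0.19 in the authors' deposited table, HSPA6 minus HSPB1 became -0.11 with Exoseal replicate 1 counted as TAG and ranged from -0.50 to 1.20 when 1 array was left out, and HSP70.2 minus HSPA6 became -0.49 within scan 1 and ranged from -0.031 without Exoseal replicate 2 to 1.00 without replicate 1. The cause was not tested, except that fits without an array have fewer samples and the fit without a filter more probes.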
